A study of Danio rerio with 17 samples.

Results

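The transcripts described here are those of 7 AP-1 genes and of egr1 in cells of the adult zebrafish epidermis. The 8 genes, fosab, fosl2, jun, junba, junbb, jund, atf3 and egr1, were taken by their exact symbol in the deposited tables, with 1 row each, out of 35117 gene identifiers. They were measured in 17 RNA libraries of fluorescent cells picked by hand into lysis buffer and amplified with SMART-seq2, a full-length cDNA method for very small inputs. MLCs (4 libraries) and cLCs (4 libraries) both came from fish with the transgene hsp70:mCherry-T2a-CreERT2, a heat-shock driven and tamoxifen-inducible Cre, and with mpeg1:loxP-DsRedx-loxP-GFP, a color switch under the promoter of the macrophage gene mpeg1. Keratinocytes (3 libraries) were from Tg(krt4:lyn-GFP) fish, T cells (3 libraries) from Tg(lck:DsRedx) fish and neutrophils (3 libraries) from Tg(lyz:GFP) fish. No wild-type group is among the libraries, the labels neither spell out MLC and cLC nor give the number of cells per library, and, except between MLCs and cLCs, which share a line, reporter line and cell group cannot be told apart. The series describes the replicates of a group as independent experiments.

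AP-1 is a transcription factor made of a Jun protein paired with a Fos, ATF or second Jun protein through a leucine zipper. Several of its genes and the zinc finger factor gene egr1 are textbook immediate early genes. Such genes are transcribed within minutes of growth factor, stress or wounding signals, without new protein synthesis, and their transcripts are short-lived. Dissociating a tissue is itself known, from mouse work, to switch on these genes, and in mammalian epidermis AP-1 also takes part in keratinocyte differentiation.

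Total gene counts ranged from 5837662 to 24596883 per library and detected genes from 4484 to 16921. The libraries cLCs 3, cLCs 4, neutrophils 2 and neutrophils 3 each had under 6000 detected genes. Levels are given as CPM, counts relative to library size, scaled between libraries by TMM, and genes are compared with one another only in the authors' TPM, which are per length. The summed CPM of 10 keratinocyte markers was 31835 to 105635 in keratinocytes, 3238 to 7097 in MLCs and at most 136 in the other groups, and krtt1c19e and cldni were at 0 in all keratinocyte libraries. The 9 neutrophil markers summed to 21773 to 64207 CPM in neutrophils, 1141 to 2356 CPM in MLCs, 1546 to 2040.1 CPM in T cells, 0 to 1038 CPM in cLCs and at most 45.8 CPM in keratinocytes. The 11 T cell markers summed to 3029 to 3970 CPM in T cells. The T cell markers also summed to 918 to 2828 CPM in cLCs, where zap70, cd247l, il2rb, bcl11ba and sla2 were at 0 in all libraries. The 9 macrophage markers summed to 13814 to 32517 CPM in MLCs, where csf1ra was at 0, and to 26797 to 130916 CPM in cLCs. In keratinocytes they summed to 4198 to 4464 CPM, with csf1ra, c1qa, c1qb, c1qc and marco at 0. The macrophage markers summed to 1556 to 2037 CPM in T cells and 516 to 714 CPM in neutrophils. At an edgeR adjusted p under 0.05, 1 of the 9 was higher in MLCs than in keratinocytes, as were 1.44% of all tested genes. Their median log2 difference there was 2.16. Against cLCs all 9 were lower in MLCs, with a median of -12.7, and 4 passed the same threshold, against 0.157% of all tested genes.

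Keratinocytes had the highest mean CPM of 7 of the 8 genes, and fosl2 was the exception. For fosab, jun, junba and junbb every keratinocyte library lay above all 14 other libraries. That is 4 of 8 genes, against 5.69% of the 15247 genes tested. In edgeR's test for any difference among the 5 groups these 4 genes were called, with adjusted p of 0.0114 for fosab, 0.0101 for jun, 0.0271 for junba and 0.00374 for junbb, where 16% of all tested genes were called. The adjusted p was 0.0519 for egr1, 0.0588 for jund, 0.0597 for atf3 and 0.763 for fosl2, above the threshold of 0.05. The call for junba was lost in 11 of 25 alternative analyses, among them no filter on low counts and leaving out any of 9 single libraries, namely keratinocytes 1, 2 or 3, MLCs 2, 3 or 4, or T cells 1, 2 or 3, with adjusted p up to 0.156 over all alternatives. Those for fosab, jun and junbb held in all 25, with adjusted p of at most 0.0313, 0.0376 and 0.0284. These are bulk libraries of picked cells, in which fewer expressing cells and less RNA per cell cannot be told apart.

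**Figure D1:**
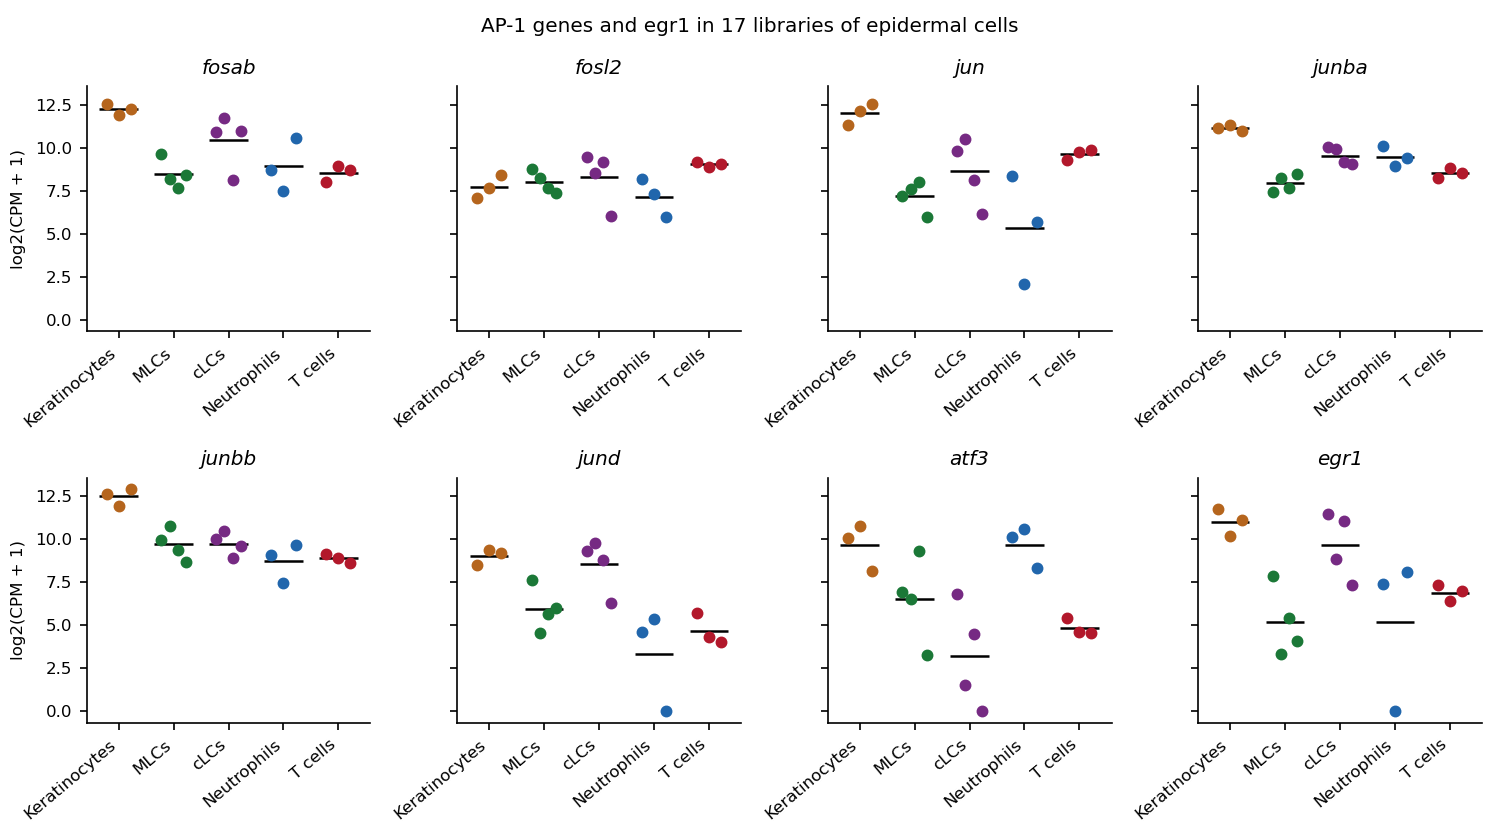
Levels of the 8 genes in each of the 17 libraries as log2(CPM + 1), with 1 panel per gene, 1 point per library and a bar at the mean of each group's log values. The 3 keratinocyte points lie above all other points for fosab, jun, junba and junbb, and the groups overlap most for fosl2.

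The Fos genes encode the partners that bind DNA with AP-1 only when paired with Jun. The c-Fos gene fosab stood at 6105, 3874 and 4961 CPM in keratinocytes 1 to 3 and at 1972, 3414, 275 and 1998 CPM in cLCs 1 to 4. In MLCs 1 to 4 its level was 808, 293, 206 and 337 CPM, in neutrophils 1 to 3 it was 427, 177 and 1499 CPM, and in T cells 1 to 3 it was 258, 487 and 412 CPM. The lowest keratinocyte library was thus just above the highest cLC library, while cLCs 3 lay within the range of MLCs. By mean the order was keratinocytes (4979.9 ± 1116 CPM, SD, n = 3), cLCs (1915 ± 1284, n = 4), neutrophils (701 ± 702, n = 3), MLCs (411 ± 270.3, n = 4) and T cells (386 ± 117, n = 3). None of the neighbours in this order differed in edgeR's test, with adjusted p of 0.344 or more.

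fosl2 encodes Fra-2, a Fos protein without the strong activation domain of c-Fos. It was the 1 gene of the set whose mean CPM was not highest in keratinocytes. Its level was 137, 198 and 345 CPM in keratinocytes, 442, 297, 206 and 168 CPM in MLCs and 722, 366, 567 and 64.2 CPM in cLCs. It was 289.9, 156 and 61.9 CPM in neutrophils and 581, 470.3 and 536 CPM in T cells. All T cell libraries lay above all keratinocyte, MLC and neutrophil libraries, and the cLC libraries spanned almost the whole range. T cells had the highest mean (529 ± 55.5 CPM, n = 3) and neutrophils the lowest (169 ± 115 CPM, n = 3), and no comparison of fosl2 passed the test. The log2 difference of T cells from keratinocytes was 1.22 ± 1.04 (SE, edgeR adjusted p = 0.604). Throughout, the SE of a log2 difference is its absolute value divided by the square root of edgeR's F statistic.

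Among the Jun genes, jun encodes c-Jun, the strongest activator of the family and the target of the JNK kinases. Its level was 2581, 4582 and 6056 CPM in keratinocytes 1 to 3 and 639.7, 860.1 and 928 CPM in T cells 1 to 3. In cLCs 1 to 4 it was 888, 1450.1, 275 and 70.28 CPM, in MLCs 1 to 4 it was 149, 193, 262 and 61.4 CPM, and in neutrophils 1 to 3 it was 323, 3.18 and 50.4 CPM. T cells had the narrowest relative spread, and cLCs and neutrophils ranged from high to low, with the cLC and neutrophil libraries of under 6000 detected genes on the low side. The T cell libraries all exceeded the MLC and neutrophil libraries and, in CPM, overlapped with those of cLCs. In TPM all T cell libraries (737 to 1185) lay above all cLC libraries (90.4 to 656), so this overlap depended on the unit.

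junba and junbb are the zebrafish co-orthologs of JunB, which in mouse restrains c-Jun and is a marker of early stimulation. junba was at 2241, 2573 and 2021 CPM in keratinocytes, 1053, 966, 581 and 541 CPM in cLCs and 1086, 494 and 683 CPM in neutrophils. It was at 305, 454 and 366 CPM in T cells and at 173, 299, 206 and 352 CPM in MLCs. MLCs were the lowest group, with no overlap with cLCs or neutrophils. The paralog junbb reached 6478, 3995 and 7915 CPM in keratinocytes, against 995, 1784, 661 and 419 CPM in MLCs and 1039.9, 1432, 491 and 770.1 CPM in cLCs. It was at 552, 175 and 813 CPM in neutrophils and at 576, 477 and 397 CPM in T cells. The 4 groups other than keratinocytes overlapped with one another for junbb, although in CPM MLCs 1 and 2 and cLCs 1 and 2 lay above all neutrophil and T cell libraries. In TPM that order did not hold, with neutrophils 3 (1283) above MLCs 1 (1011), cLCs 1 (1066) and cLCs 2 (812). In TPM, junbb held rank 13 to 39 among all genes in the keratinocyte libraries and junba rank 54 to 62.

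jund encodes JunD, the Jun protein that in mammals is present in resting cells and is less tied to stimulation. Its level was 367, 678 and 589 CPM in keratinocytes and 639, 887, 446 and 76.4 CPM in cLCs. It was 196, 22.3, 50.7 and 63.8 CPM in MLCs, 23.5, 41.1 and 0 CPM in neutrophils and 51.1, 18.7 and 15.4 CPM in T cells. Keratinocytes (545 ± 160.0 CPM, n = 3) and cLCs (512 ± 342 CPM, n = 4) had close means with overlapping libraries. All keratinocyte libraries lay above all MLC, neutrophil and T cell libraries, and all cLC libraries lay above all neutrophil and T cell libraries.

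atf3 encodes a stress-induced AP-1 partner that acts as a repressor as a homodimer. Its mean was highest in keratinocytes and neutrophils: keratinocytes had 1094, 1778 and 280.5 CPM and neutrophils 1139.8, 1561 and 323 CPM. MLCs had 121, 91.2, 629 and 8.64 CPM, cLCs 113, 1.95, 21.96 and 0 CPM, and T cells 41.9, 23.9 and 22.7 CPM. The neutrophil libraries did not overlap with those of cLCs or T cells but did with those of keratinocytes and MLCs, where MLCs 3 stood above the lowest neutrophil library. The difference between neutrophils and keratinocytes was -0.06 ± 1.60 on the log2 scale (SE, edgeR adjusted p = 1), which leaves room for a difference in either direction. In TPM the neutrophil mean (807 ± 569, SD, n = 3) was above that of keratinocytes (552 ± 372, n = 3), so the order of these groups depended on the unit.

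egr1, a zinc finger factor induced through ERK and serum response factor, varied widely within groups. Keratinocytes had 3418, 1155 and 2266 CPM, and cLCs had 2895, 471, 2147 and 159 CPM. MLCs had 231, 9.08, 42.1 and 15.9 CPM, neutrophils 171, 0 and 272 CPM, and T cells 159.6, 82.9 and 127 CPM. cLCs 1 and 3 lay within the keratinocyte range, and cLCs 2 and 4 lay below it. Every keratinocyte library lay above every MLC, neutrophil and T cell library.

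The 4 comparisons with keratinocytes share the same 3 keratinocyte libraries, and every member called in them was lower than in keratinocytes. In MLCs 3 members were called, where 0.472% of all tested genes were called lower: fosab fell by 3.60 ± 0.89 on the log2 scale (SE, edgeR adjusted p = 0.0347), jun fell by 4.73 ± 1.17 (adjusted p = 0.0354) and junba fell by 3.15 ± 0.76 (adjusted p = 0.0321). As ratios of fitted means, keratinocytes were 12.1-fold, 26.5-fold and 8.85-fold above MLCs. In cLCs the 1 member called was junbb, which fell by 2.72 ± 0.75 (adjusted p = 0.0457), where 1.35% of all tested genes were called lower. In neutrophils jun fell by 5.13 ± 1.35 (adjusted p = 0.0295) and junbb fell by 3.58 ± 0.87 (adjusted p = 0.0191), where 3% of tested genes were called lower. In T cells fosab fell by 3.69 ± 1.00 (adjusted p = 0.0428) and junbb fell by 3.67 ± 0.87 (adjusted p = 0.0201), where 1.76% were called lower. The median log2 difference of the 8 genes was -2.93 in MLCs, -1.46 in cLCs, -3.20 in neutrophils and -3.68 in T cells, beside 0.30, 0.26, -0.17 and 0.48 over all tested genes. With RLE scaling those all-gene medians were 0.08, 0, -0.26 and 0.23. The medians of the 8 genes were taken under TMM only, so they compare with the TMM all-gene medians and not with these.

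These pairwise calls depended on single libraries, as did the share called over all tested genes. The count in MLCs was 0 without keratinocytes 2 or 3, MLCs 2, 3 or 4, or T cells 1 or 2, and 1 without keratinocytes 1, MLCs 1, cLCs 1 or T cells 3. In cLCs it was 0 without any single library of keratinocytes, MLCs, cLCs or T cells. In neutrophils it was 0 without keratinocytes 3 or neutrophils 2 and 1 without keratinocytes 2, neutrophils 1 or neutrophils 3. In T cells it was 0 without keratinocytes 1 or 3 or any T cell library, and 1 without keratinocytes 2, MLCs 2, MLCs 4 or cLCs 1. With 1 library left out, 0.641% (without keratinocytes 2) to 2.59% (without cLCs 4) of all tested genes were called in MLCs. That share was 1.15% (without keratinocytes 2) to 4.07% (without neutrophils 3) in cLCs. It was 1.97% (without neutrophils 2) to 7.23% (without cLCs 4) in neutrophils. In T cells it was 1.17% (without T cells 3) to 4.57% (without cLCs 4). Without the 4 libraries of under 6000 detected genes the counts of members called were 5 in MLCs, 0 in cLCs and 7 in T cells. Over all tested genes 5.37%, 5.1% and 8.3% were then called, beside 1.91%, 3.37% and 3.33% with all 17 libraries. That leaves 2 cLC libraries and 1 neutrophil library, which is assumed to vary like the other groups, so that no count is given for neutrophils. None of the 8 called differences changed sign in any alternative. Each was between groups whose libraries did not overlap in CPM, so a change of sign was hardly possible and its absence adds no support.

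**Figure D2:**
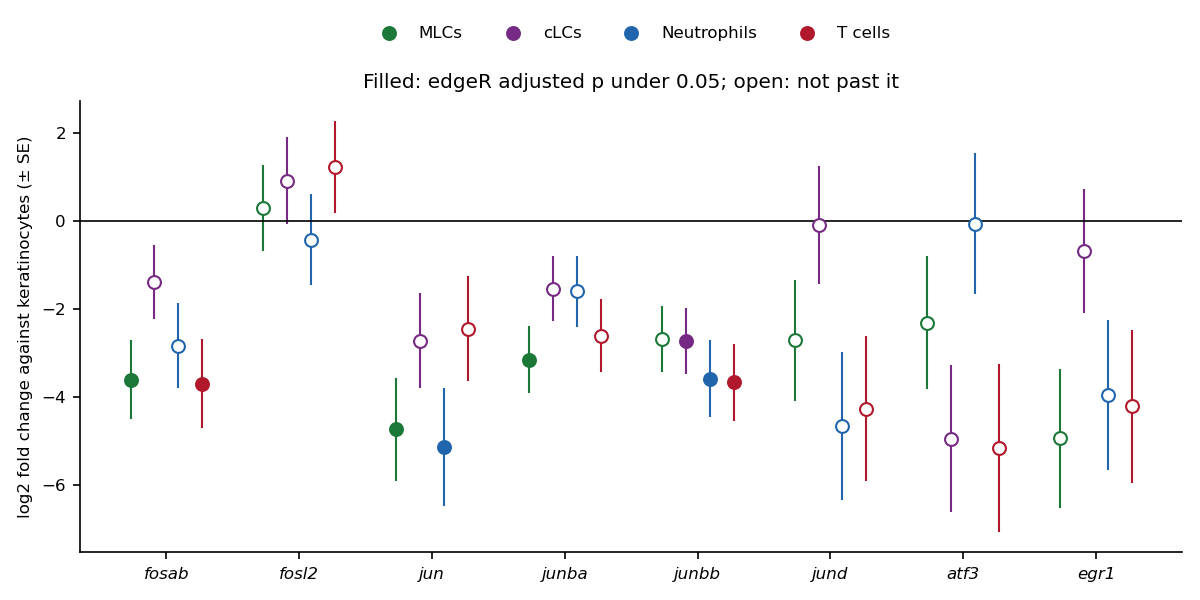
Log2 fold change of each gene in MLCs, cLCs, neutrophils and T cells against keratinocytes, filled where the adjusted p is under 0.05. Bars are 1 SE, derived from the fold change and edgeR's F statistic. Filled points are seen for fosab, jun, junba and junbb and are all below 0, and the fosl2 points lie on both sides of 0.

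Counted by libraries that do not overlap, 6 members were lower in MLCs than in keratinocytes (10.1% of all tested genes), 5 in cLCs (11%), 6 in neutrophils (15.9%) and 7 in T cells (13.3%). The members that overlapped were fosl2 and atf3 in MLCs and neutrophils and fosl2, jund and egr1 in cLCs. fosl2 was higher without overlap in T cells, as were 17.7% of tested genes.

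A comparison of keratinocytes with the mean of the other 4 groups was chosen after the values had been seen. Its calls, adjusted p and alternatives therefore describe the pattern already seen and are no independent support for it. In it 6 of the 8 members were called and higher in keratinocytes, where 10.8% of all tested genes were called higher. On the log2 scale junbb was higher by 3.16 ± 0.52 (SE, edgeR adjusted p = 0.000224), jun by 3.76 ± 0.74 (adjusted p = 0.0013), fosab by 2.87 ± 0.60 (adjusted p = 0.00204) and junba by 2.22 ± 0.54 (adjusted p = 0.00632). These are fitted folds of 8.92, 13.5, 7.33 and 4.66. egr1 was higher by 3.44 ± 1.00 (adjusted p = 0.0225) and jund by 2.93 ± 0.96 (adjusted p = 0.0448), and atf3, at 3.12 ± 1.06 (adjusted p = 0.0547), and fosl2, at -0.50 ± 0.83 (adjusted p = 0.943), did not pass. The calls of fosab, jun and junbb held in all 25 alternative analyses. That of junba was lost with no filter and without keratinocytes 2 (adjusted p of at most 0.0567 over the alternatives), that of egr1 in both limma fits and without keratinocytes 1 (at most 0.108), and that of jund in 14 of 25 alternatives, among them leaving out any keratinocyte or T cell library, MLCs 2, 3 or 4, cLCs 1, 2 or 3, or neutrophils 1 (at most 0.149). The number of called members was 4 without keratinocytes 1 or 2 and 4 to 7 over all single libraries left out. Over all tested genes 10% to 14% were then called in either direction, beside 13.1% with all 17 libraries.

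Among MLCs, cLCs, neutrophils and T cells, edgeR called none of the 8 genes in any of the 6 comparisons, where it called 0.171% of all tested genes for MLCs against cLCs, 1.9% for MLCs against neutrophils, 1.21% for MLCs against T cells, 0.859% for cLCs against neutrophils, 0.203% for cLCs against T cells and 0.105% for neutrophils against T cells. At an unadjusted p under 0.05 the counts in that order were 3, 1, 1, 3, 3 and 2. The share of all tested genes at that threshold was not counted, so these counts have no background beside them. DESeq2 called 0, 1, 0, 2, 1 and 1, where it called 6.99%, 18.1%, 9.42%, 14.8%, 7.71% and 13.6% of all tested genes. limma on log2(TPM + 1) called 2, 1, 2, 2, 1 and 1, where it called 8.4%, 8.91%, 13.8%, 4.81%, 14.9% and 11.7% of them. atf3 and jund gave large differences that did not pass. atf3 was 5.09 ± 1.90 higher in neutrophils than in T cells (edgeR adjusted p = 0.227) and -4.89 ± 1.67 in cLCs relative to neutrophils (adjusted p = 0.174). jund was 4.57 ± 1.64 higher in cLCs than in neutrophils (adjusted p = 0.189) and 4.17 ± 1.61 higher in cLCs than in T cells (adjusted p = 0.278).

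MLCs and cLCs were picked from the same transgenic line. The mean of egr1 was 74.5 ± 105 CPM (SD, n = 4) in the former and 1418 ± 1316 CPM (n = 4) in the latter (log2 difference -4.25 ± 1.503, edgeR adjusted p = 0.264), with MLCs 1 above cLCs 4. fosab differed by -2.22 ± 0.82 (adjusted p = 0.275), junba by -1.61 ± 0.70 (adjusted p = 0.333), jun by -2.01 ± 1.02 (adjusted p = 0.418) and jund by -2.62 ± 1.33 (adjusted p = 0.418). atf3 had the opposite sign, 2.64 ± 1.47 in MLCs relative to cLCs (adjusted p = 0.490). Taken by replicate number, egr1, fosab, jun, junba and jund were lower in MLCs than in cLCs for every number. By the same reading atf3 was higher for every number, and fosl2 and junbb changed sign between numbers. Some gaps were narrow, with jun at 262 against 275 CPM in number 3 and atf3 at 121 against 113 CPM in number 1. The libraries of a number are not known to be pairs, and the share of all genes with such an agreement was not counted. junba was the 1 member whose libraries did not overlap between MLCs and cLCs, as for 2.55% of tested genes in that direction, and junbb was alike in mean, with a log2 difference of 0.05 ± 0.68 (adjusted p = 1). Libraries of cLCs and neutrophils did not overlap for jund, higher in cLCs, or atf3, lower in cLCs (3.91% and 2.26% of tested genes). Those of MLCs and neutrophils did not overlap for junba, lower in MLCs (3%). T cells lay above MLCs without overlap for fosl2 and jun (11.9%), below cLCs for junba, in CPM but not in TPM, and for jund (3.99%), below neutrophils for junba and atf3 (3.79%) and above neutrophils for fosl2 and jun (17.4%).

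In TPM, the 8 genes summed to 20075, 13557 and 18999 in keratinocytes 1 to 3, against 1082 to 2273 in MLCs, 3779.6 to 6062 in cLCs, 2801 to 4744 in neutrophils and 2816 to 3708 in T cells. The lowest keratinocyte sum was above the highest sum of any other library. The next values are the share of each Jun gene in the summed TPM of jun, junba, junbb and jund. junbb made up 40.9% to 62.0% in keratinocytes, 52.6% to 81.2% in MLCs and 37.3% to 58.1% in cLCs. junba made up 42.0% to 70.5% in neutrophils, against 12.8% to 23.8% in keratinocytes, and jun made up 34.8% to 47.8% in T cells, against 0.362% to 13.1% in neutrophils. jund was at most 7.76% in any library, and reached that in cLCs 3. These shares have no test of their own.

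On the Fos side, fosab made up 98.2% to 99.4% of the summed TPM of fosab and fosl2 in keratinocytes, 78.4% to 88.1% in MLCs, 80.7% to 98.9% in neutrophils, 64.1% to 99.1% in cLCs and 62.1% to 79.2% in T cells. The ratio of summed Jun to summed Fos TPM ranged from 0.796 in cLCs 4 to 7.12 in MLCs 2 and was 2.06 to 3.41 in keratinocytes. Thus the keratinocyte ratio lay inside the range of the other groups, while the keratinocyte sums of both sides were higher.

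**Figure D3:**
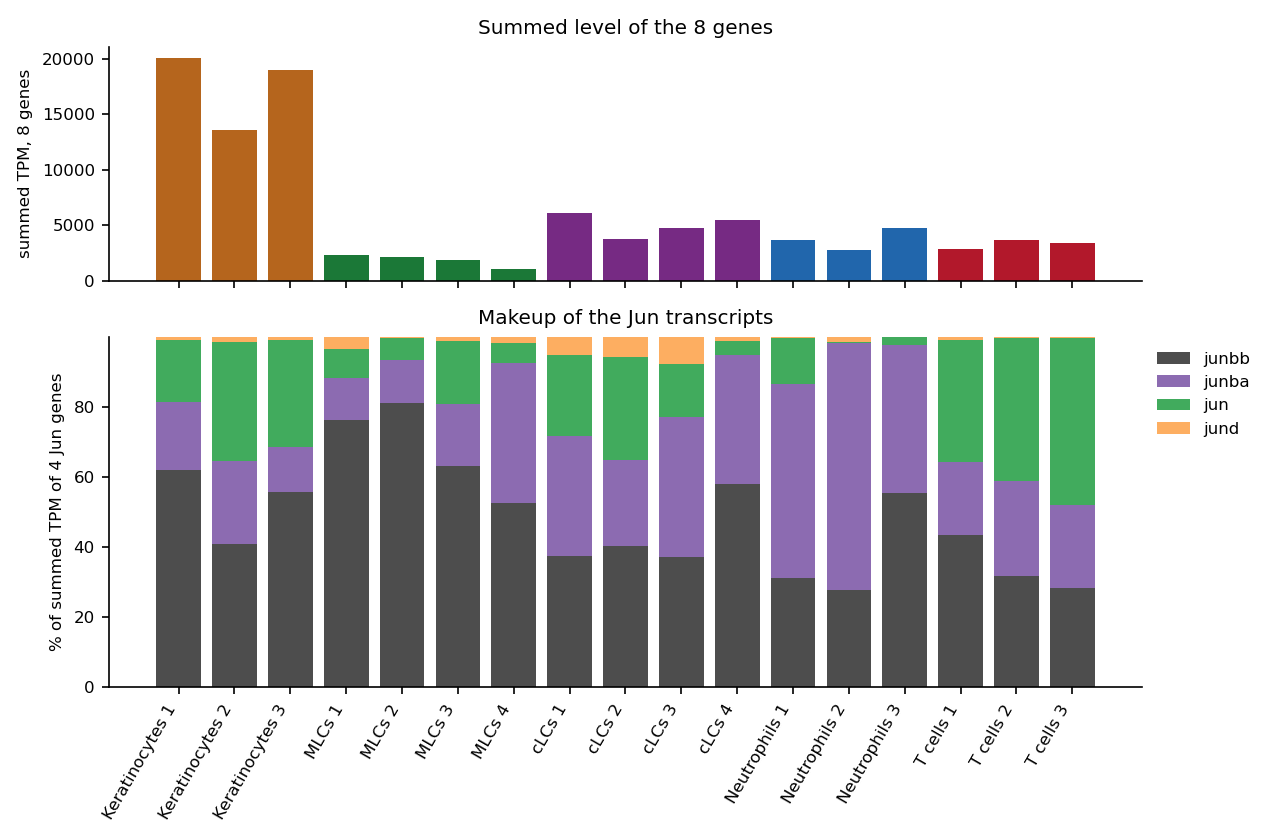
Top, summed TPM of the 8 genes in each library. Bottom, the percent of the summed TPM of jun, junba, junbb and jund that each holds in the same libraries. Keratinocyte sums of 13557 to 20075 stand above all others, and junba holds most of neutrophils 1 and 2 while jun is largest in T cells 2 and 3.

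Within groups the 8 genes moved together only in part. With each group's mean log2(CPM + 1) removed, 21 of the 28 pairs had a positive Pearson correlation over the 17 libraries and 7 were above 0.5. The highest was fosl2 with jund (r = 0.71, Spearman rho 0.67), which was 0.44 without the 2 libraries farthest from the median of fosl2. It was followed by jun with egr1 (r = 0.65, rho 0.38, 0.31 without 2 libraries) and fosab with junbb (r = 0.64, rho 0.50, 0.51 without 2 libraries). The lowest was fosab with atf3 (r = -0.38, rho -0.55). The libraries also differed in the number of detected genes, which did not follow total counts. MLCs 1 had 5837662 counts and 15684 detected genes, and cLCs 4 had 14248945 counts and 4484. The within-group correlation with the log2 number of detected genes was 0.68 for jun, 0.65 for fosl2, 0.55 for jund and 0.51 for junba. It was 0.48 for junbb, 0.42 for atf3, 0.32 for egr1 and 0.25 for fosab. The part of detected genes in the correlations between members was not tested, and these values are descriptions with no p.

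**Figure D4:**
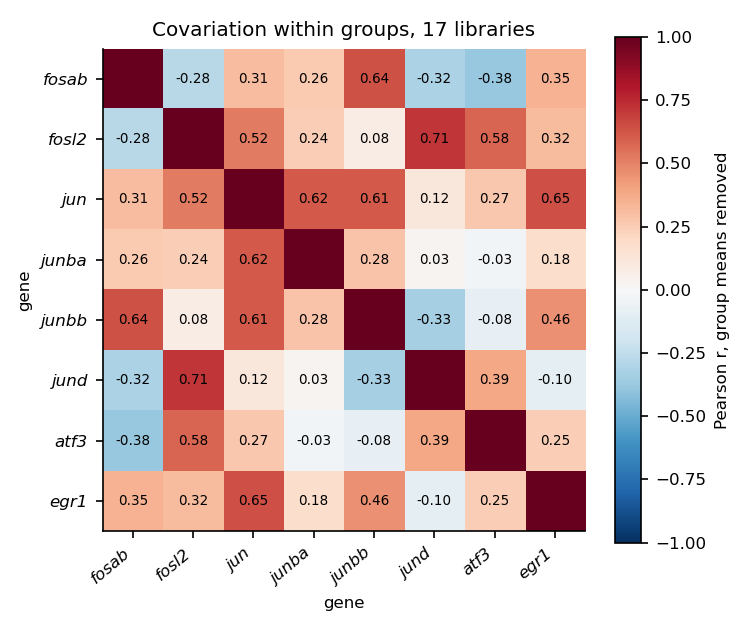
Pearson correlation between the log2(CPM + 1) values of each pair of the 8 genes over 17 libraries after subtraction of group means. Red cells are positive and blue cells negative, from -0.38 for fosab with atf3 to 0.71 for fosl2 with jund.

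Other genes whose log2(CPM + 1) tracked each member most closely over the 17 libraries, between groups as well as within, were named by a fixed rule of the 3 highest Pearson correlations. The closest was ier2b, an immediate early gene, with junbb (r = 0.94, rho 0.91), and svopl (0.92) and noxa1 (0.92) followed. ier2b averaged 2510.0 CPM in keratinocytes and 168 to 477 CPM in the other groups. For jun they were namptb (r = 0.89, rho 0.93), ogfrl2 (0.84) and sh3d21 (0.83), for junba ddit3 (0.85, rho 0.77), tpm3 and lgals3bpa, and for fosab rsrp1 (0.87, rho 0.78), h1f0 and ptpn21. fosl2 was closest to sec63 (0.87), ubr4 and erbin, jund to hivep1 (0.84), anxa2a and fuca2, atf3 to nrbp2a (0.86), add3a and flvcr1, and egr1 to glud1a (0.83), slc23a2 and rorcb. ddit3, a stress-response bZIP gene, averaged 1340.4 CPM in keratinocytes, 638 in cLCs, 309 in neutrophils, 225 in T cells and 173 in MLCs. The points share the cell groups, so that any gene high in keratinocytes ranks well.

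Of the other Fos, Jun and ATF family bZIP genes, 21 of 23 could be tested. Over all tested genes, in either direction, 1.91%, 3.37%, 4.85% and 3.33% were called against keratinocytes in MLCs, cLCs, neutrophils and T cells. DESeq2 called 14.4%, 18.7%, 26.5% and 19.7% of its tested genes and limma on log2(TPM + 1) 12.6%, 14.1%, 14.2% and 20.7%. The same shares apply to the lists that follow, and the share of all tested genes at an unadjusted p under 0.05 was not counted. Against keratinocytes 1 was called higher in MLCs and 1 in cLCs, 2 were higher and 1 lower in T cells, and none was called in neutrophils, where edgeR's unadjusted p was under 0.05 for 5 and DESeq2 called 6 and limma 4. Their median log2 differences were -0.30, 0.01, -0.03 and -0.14 in MLCs, cLCs, neutrophils and T cells, beside the all-gene medians of 0.30, 0.26, -0.17 and 0.48. cremb, a cAMP response modulator gene, was at 0 in all keratinocyte libraries and at 265 ± 84.7 CPM in MLCs, at least 3286-fold higher by a floor of 3 counts over the group, and at 500 ± 103 CPM in T cells, at least 6187-fold higher (edgeR adjusted p = 0.0154 and 0.00998). In cLCs cremb was at 11.5 ± 13.8 CPM, and in neutrophils it was near 0, at 0.0282 ± 0.0488 CPM. batf, whose product pairs with Jun in T cells, was at 147 ± 80.6 CPM in T cells and at 0 in keratinocytes (adjusted p = 0.0372). jdp2b, a Jun dimerization repressor gene, fell by 4.12 in T cells (adjusted p = 0.0391), from 2635 ± 1646 CPM to 152 ± 28.3 CPM. fosb, a close relative of fosab, was at 1865 ± 619 CPM in keratinocytes, 2747 ± 2432 CPM in cLCs and 172 ± 53.9 CPM in MLCs, and was not called in any of these comparisons.

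The 7 other EGR genes and NAB corepressors were all tested. None was called in MLCs, cLCs or neutrophils against keratinocytes, while 2, 1 and 4 had an unadjusted p under 0.05, DESeq2 called 2, 1 and 3 and limma 2, 2 and 3. egr2a was at 1313 ± 811 CPM in keratinocytes, 56.5 ± 63.4 CPM in cLCs and 6.12 ± 10.6 CPM in MLCs, and egr3 at 784 ± 451, 89.8 ± 104 and 39.5 ± 30.2 CPM. The median difference of the list was -3.87 in MLCs, -1.76 in cLCs, -5.86 in neutrophils and -1.14 in T cells. nab1a, which encodes a corepressor of EGR proteins, was called in T cells, with 909 ± 75.1 CPM against 0 in all keratinocyte libraries (adjusted p = 0.0169). It was also at 0 in MLCs, at 0.0282 ± 0.0488 CPM in neutrophils and at 20.2 ± 23.5 CPM in cLCs.

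Of 47 other immediate early and early response genes, all 47 were tested. None was called in MLCs against keratinocytes, where 14 were at an unadjusted p under 0.05 and DESeq2 called 6 and limma 13. In cLCs 1 was called, in neutrophils 6 and in T cells 3, all lower. Over all tested genes 0.472%, 1.35%, 3% and 1.76% were called lower in MLCs, cLCs, neutrophils and T cells. The transcription factor gene cebpd was called lower in cLCs, neutrophils and T cells, from 123 ± 63.9 CPM in keratinocytes to 0.0271 ± 0.0542 CPM in cLCs and 0 in neutrophils and T cells (adjusted p = 0.0415, 0.0354 and 0.0433). In MLCs cebpd was also low, at 1.83 ± 3.31 CPM, but was not called (log2 difference -6.08, edgeR adjusted p = 0.225). dusp5, an ERK phosphatase gene, fell by 3.34 in neutrophils and fell by 3.58 in T cells (adjusted p = 0.0463 and 0.0425), and was at 2219.8 ± 589 CPM in keratinocytes and 2430.2 ± 711 CPM in MLCs. klf2a, klf4, csrnp1a and nr4a3 were called in neutrophils, and ier2b in T cells, where it fell by 3.90 (adjusted p = 0.0374). The 4 members of the list with the highest mean TPM were not called against keratinocytes. The mean of ier2a was 3104 ± 966 CPM in keratinocytes, 634 ± 174 in MLCs, 1042 ± 916 in cLCs, 539 ± 138 in neutrophils and 547 ± 47.2 in T cells. The phosphatase gene dusp1 was at 2769 ± 672 CPM in keratinocytes, 1516 ± 627 in MLCs, 3189 ± 3219 in cLCs, 1613 ± 349 in neutrophils and 4899 ± 2073 in T cells. mcl1a, a survival gene of the BCL2 family, was at 6993 ± 1822 CPM in keratinocytes, 2365 ± 695 in MLCs, 4566 ± 3626 in cLCs, 2604 ± 595 in neutrophils and 3109.9 ± 119 in T cells. The transcription factor gene cebpb was at 2378 ± 1257 CPM in keratinocytes, 61.3 ± 106 in MLCs, 7405 ± 7480.4 in cLCs, 9712 ± 7176 in neutrophils and 6635 ± 420.2 in T cells. Keratinocytes thus had the highest mean of ier2a and mcl1a, T cells that of dusp1 and neutrophils that of cebpb. The median log2 differences of this list were -1.56, -0.06, -1.41 and -0.55 in MLCs, cLCs, neutrophils and T cells.

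Of 30 upstream kinase and serum response factor genes 29 were tested, and the 2 that were called were higher than in keratinocytes. rps6ka1, encoding the ERK-activated kinase RSK1, was at 0 in keratinocytes and at 466 ± 171 CPM in MLCs, 83.1 ± 122 CPM in cLCs, 379 ± 139 CPM in neutrophils and 303 ± 101 CPM in T cells (adjusted p = 0.0044, 0.00826, 0.00369 and 0.00502). mapk11, a p38 kinase gene, was called in MLCs, cLCs and neutrophils (adjusted p = 0.0215, 0.00735 and 0.00618). mapk3, encoding ERK1, averaged 63.4 to 120 CPM in the 5 groups. Of the heat shock genes, 17 of 21 rows were tested, and edgeR called none against keratinocytes in any comparison, with 2, 0, 4 and 1 at an unadjusted p under 0.05 in MLCs, cLCs, neutrophils and T cells, 1, 0, 3 and 1 called by DESeq2 and 1, 0, 1 and 1 by limma. Their summed CPM was 4945 to 11635 in keratinocytes, 4135 to 12437 in MLCs, 1709 to 14243 in cLCs, 4847 to 7566 in neutrophils and 4494 to 6500 in T cells, which overlap.

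**Figure D5:**
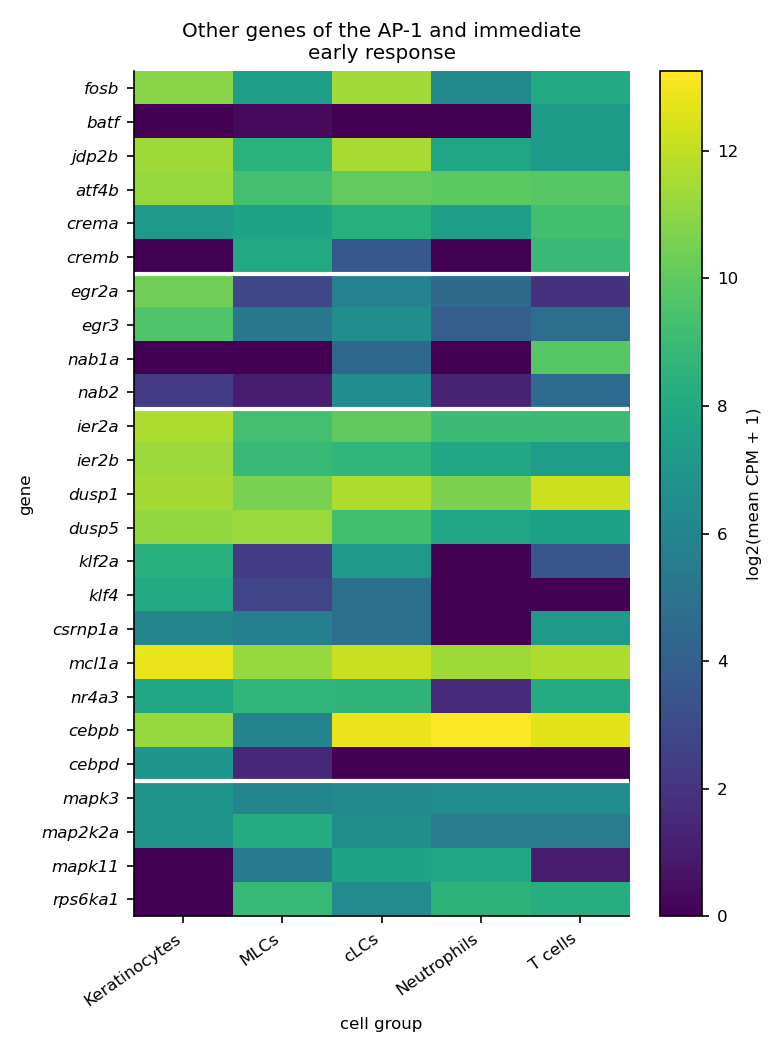
Mean level, as log2(mean CPM + 1), in the 5 groups of the genes named from the 4 lists of bZIP, EGR, immediate early and kinase genes, separated by white lines. fosb, egr2a, egr3 and ier2b are brightest in keratinocytes or in keratinocytes and cLCs, and cremb, nab1a and rps6ka1 are at 0 in keratinocytes. nab1a is also at 0 in MLCs, and cremb and nab1a are near 0 in neutrophils.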

How the data were processed

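RNA was measured in 17 libraries of picked epidermal cells. Per the submitters' processing notes, STAR, featureCounts and danRer10 were used, with versions, annotation release and strand setting not given in the sources used here. The deposited tables hold raw read counts and, in the second, TPM computed by the authors. Of 35572 lines, 455 repeat an identifier.

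Counts were fitted with edgeR 4.0.16 in R 4.3.3 (TMM, filterByExpr, quasi-likelihood, all 17 libraries, 15247 genes), with Benjamini-Hochberg adjustment over all tested genes and calls under 0.05. The common biological coefficient of variation was 2.03. Each SE of a log2 difference was derived from that difference and the F statistic, so it restates the unadjusted p and is no separate estimate of spread. CPM use TMM-adjusted library sizes. Floors of 3 counts over a group cover counting error only, since amplified reads are not independent molecules. Alternatives used RLE, DESeq2 1.42.0, no filter, 10 CPM in 3 libraries, limma 3.58.1 on log2(TPM + 1) and log2(TPM + 0.1) where 3 libraries reached 1 TPM, 2 groups alone, a replicate block and left-out libraries. Replicate numbers were not taken as pairs.

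Named genes were the 8 members, of each list those called against keratinocytes and the 4 highest by mean TPM, and 3 genes most alike per member. Members, lists and tests were chosen with earlier results of these data known. Of 52 immediate early symbols 47 matched, of 24 bZIP symbols 23, of 21 heat shock symbols 20 and of the EGR and kinase symbols all.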

Additional observations from a re-analysis of the deposited data

Results flagged for a closer look

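On the CPM scale egr1 in MLCs stood out within its group. MLCs 1 had 230.9 CPM against 9.08, 42.1 and 15.9 CPM in MLCs 2, 3 and 4, and the gap to the next library was 0.851 of the group's range, above Dixon's critical value at the 95% level for 4 libraries. It was the 1 flag among 16 sets of 4 libraries (8 genes in MLCs and in cLCs). Chance flags about 1 in 20 where values are normally distributed. The CPM here have an SD above their mean (74.5 ± 105), so that rate may not hold, and log2 values were not put to the same rule. MLCs 1 had the lowest total count of all libraries, 5837662, and 15684 detected genes, and whether these bear on its egr1 level was not tested.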

How the results depend on the processing

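The number of the 8 genes called depended on the tool, as did the share of all tested genes. In MLCs, cLCs, neutrophils and T cells against keratinocytes that share was 1.91%, 3.37%, 4.85% and 3.33%. With DESeq2 it was 14.4%, 18.7%, 26.5% and 19.7%. With limma it was 12.6%, 14.1%, 14.2% and 20.7% on log2(TPM + 1) and 11.7%, 12.9%, 14.1% and 18.2% on log2(TPM + 0.1). Only the 2 groups gave 9.79%, 5.4%, 12.7% and 20.3%. For T cells it was 3.39% with no filter and 5.94% with the replicate block. Counts of the 8 genes follow. Against keratinocytes, MLCs gave 3, and 5 with DESeq2, limma on log2(TPM + 1), only the 2 groups and without the 4 libraries of under 6000 genes. cLCs gave 1, and 4 with DESeq2 and limma on log2(TPM + 1), 3 with limma on log2(TPM + 0.1), and 0 with only the 2 groups or without the 4 libraries. Neutrophils gave 2, and 4 with DESeq2 and limma on log2(TPM + 0.1), 5 with limma on log2(TPM + 1) and 1 with only the 2 groups. Without the 4 libraries 1 neutrophil library was left, so no count is given. T cells gave 2, and 6 with DESeq2, 4 with no filter, limma on log2(TPM + 1) and the replicate block, and 7 with only the 2 groups or without the 4 libraries. Among the other groups, where the count was 0, it was 1 or 2: MLCs against cLCs 1 with no filter, limma on log2(TPM + 0.1) and the replicate block and 2 with limma on log2(TPM + 1), MLCs against neutrophils 1 with DESeq2 and both limma fits, MLCs against T cells 2 with limma on log2(TPM + 1) and 1 with limma on log2(TPM + 0.1) or only the 2 groups, cLCs against neutrophils 2 with DESeq2 and both limma fits and 1 with no filter and the replicate block, cLCs against T cells 1 with DESeq2 and limma on log2(TPM + 1) and 2 without the 4 libraries, and neutrophils against T cells 1 with DESeq2 and both limma fits. The test for any difference gave 4, and 7 with RLE, DESeq2 and limma on log2(TPM + 1). Leaving out 1 library gave 0 to 4 for MLCs, 0 to 1 for cLCs, 0 to 2 for neutrophils and 0 to 2 for T cells against keratinocytes, 0 to 0 in the other 6 comparisons, 3 to 7 for any difference and 4 to 7 for keratinocytes against the mean of the others. Over all tested genes any difference was called for 16%, and for 17.6% with RLE, 18.5% with DESeq2 and 31.4% with limma on log2(TPM + 1). In the other 6 comparisons, in the order above, limma on log2(TPM + 0.1) called 7.54%, 9.21%, 11.5%, 3.99%, 9.89% and 9.99%. MLCs against cLCs gave 1.27% with no filter and 1.79% with the block, and cLCs against neutrophils 1.92% and 2.45%. MLCs against T cells gave 8.5% with only the 2 groups, and cLCs against T cells 2.29% without the 4 libraries. The causes were not tested. Of 208 alternative values of the 8 called differences, 135 stayed called, 73 lost the call and 0 reversed.

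Over all genes the calls for MLCs against keratinocytes were 291 with edgeR, 2198 with DESeq2, 1838 with limma on log2(TPM + 1), 1711 with limma on log2(TPM + 0.1), 1120.0 with only the 2 groups, 1070.0 without the 4 libraries, 636 with no filter and 547 with the replicate block. Leaving out 1 library gave 110.0 (without keratinocytes 2) to 394 (without cLCs 4), with 116 without keratinocytes 3, 135 without keratinocytes 1, 157, 172 and 171 without MLCs 2, 3 and 4. Of 31 same-number pairs of libraries, 2 had correlated deviations over 0.1 (median 0.010), and the numbers were not taken as pairs. Both were of MLCs against cLCs, whose 4 pairs gave 0.176, 0.105, 0.0323 and 0.0434. The pooled median cannot settle whether these same-line groups are paired. Detected genes fell with the number in both, from 15684 to 8972 in MLCs and from 16200 to 4484 in cLCs. They also fell in neutrophils, from 11404 to 4556. Total counts of number 1 were the lowest, 5837662 in MLCs and 6158350 in cLCs. Whether same-number libraries share an experiment was not tested. The block took the calls over all genes from 26 to 273 for MLCs against cLCs and from 16 to 214 for neutrophils against T cells. With the block junba lost its call in the test for any difference and in MLCs, and junbb lost its call in cLCs, while egr1 gained calls in MLCs, neutrophils and T cells and atf3 in cLCs and T cells against keratinocytes. With a biological coefficient of variation of 2.03 and 3 or 4 libraries per group, a difference that missed the threshold was not detectable at this precision and is not shown to be absent.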
